A study of Homo sapiens with 11 samples.

Results

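The regions described here are 3 large clusters of olfactory receptor genes, taken as a control because these genes are presumed silent in a breast cancer line. They were chosen by position on hg19, not by their values: chromosome 11 from 4380001 to 6230000 on the short arm (11p, 1.85 Mb), chromosome 11 from 55000001 to 56600000 on the long arm (11q, 1.6 Mb) and chromosome 1 from 247600001 to 248900000 (1q, 1.3 Mb). Together they hold 4.75 Mb of the 3034.2 Mb of chromosomes 1 to 22 and X, which is 0.157%. The globin genes lie inside the 11p span, and the 0.1 Mb from 5200001 to 5300000 around them was also measured apart.

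Chromatin of MDA-MB-231 cells, a line from a human triple-negative breast cancer, was analysed by chromatin immunoprecipitation and sequencing (ChIP-seq). Cells lacking mdig (KO) were compared with cells that made normal amounts of it (WT). Mdig, also named MINA53 or RIOX2, is a JmjC-domain oxygenase, and its antibody is called MINA in the labels. Antibodies to H3K9me3, H4K20me3, H3K4me3, H3K36me3 and MINA were each used on 1 KO and 1 WT chromatin sample, which gave 10 libraries. Per the labels' protocols both genotypes came from CRISPR-Cas9 work and both grew in medium with 2 ug/ml of the antibiotic blasticidin. Whether the KO cells are 1 clone or a pool, and which guides were used, is not given in the sources used here. With 1 library per antibody and genotype no difference could be tested, and every value describes these libraries alone. The files hold lists of enriched intervals without heights, so the quantity given throughout is the length, or the share of a region, that a list covers.

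Olfactory receptors are G protein-coupled receptors with which sensory neurons of the nose detect odours. Each such neuron uses a single allele of a single receptor gene, and in other tissues the genes are normally off. In mouse olfactory neurons the silent receptor genes are packed in heterochromatin that carries H3K9me3 and H4K20me3. H3K9me3 recruits HP1 proteins, and H4K20me3 is placed by SUV420H enzymes on chromatin that HP1 has bound. H3K4me3 marks active and CpG-rich promoters, and H3K36me3 is placed along genes as they are transcribed.

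No interval was assigned to a gene, since no gene models on hg19 were at hand. The gene content was read from the order of genes in RefSeq on GRCh38.p14, as the run of neighbouring genes between fixed end genes. The 11p run, between OR52B4 and OR52W1, held 135 genes. Of these 102 were olfactory receptor genes (55 coding and 47 pseudogenes), 49 of them of family 52, and 15 were other coding genes, among them TRIM68, TRIM21, TRIM6, TRIM34, TRIM5 and TRIM22 of the tripartite motif family and the globin genes. The 11q run, between OR4A11P and OR5G3, held 109 genes, of which 99 were receptor genes (45 coding and 54 pseudogenes), with family 5 leading at 49. TRIM51 was its only other coding gene. The 1q run, between OR2B11 and OR14I1, held 68 genes, of which 56 were receptor genes (43 coding and 13 pseudogenes), 43 of them of family 2. GCSAML and TRIM58 were its other coding genes. The runs held 257 of the 875 olfactory receptor genes in the table and 143 of its 392 coding ones.

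The sequence around the starts of these genes sets them apart from most promoters. The windows reached from 250 bases before to 50 bases after each start in the RefSeq table. For each run the window of the middle coding receptor gene is shown, and for contrast that of the TRIM gene of the 11p run with the most CG dinucleotides. The sequences run 5′ to 3′ on the gene's strand, and capitals mark every CG.
OR52A5, GRCh38.p14 chr11:5138307-5138606, minus strand, 11p run
OR52A5: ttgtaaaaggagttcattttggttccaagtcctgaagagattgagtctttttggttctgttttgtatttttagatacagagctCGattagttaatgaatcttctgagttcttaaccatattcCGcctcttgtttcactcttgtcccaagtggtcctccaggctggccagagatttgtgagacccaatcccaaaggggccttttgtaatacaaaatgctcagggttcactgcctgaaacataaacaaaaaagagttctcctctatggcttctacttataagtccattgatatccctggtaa
OR8K5, GRCh38.p14 chr11:56160268-56160567, minus strand, 11q run
OR8K5: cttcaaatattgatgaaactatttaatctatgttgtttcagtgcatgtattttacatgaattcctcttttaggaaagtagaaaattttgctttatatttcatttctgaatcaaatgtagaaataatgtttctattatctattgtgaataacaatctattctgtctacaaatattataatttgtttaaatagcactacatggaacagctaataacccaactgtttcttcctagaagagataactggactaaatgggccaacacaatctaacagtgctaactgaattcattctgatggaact
OR2L3, GRCh38.p14 chr1:248046586-248046885, plus strand, 1q run
OR2L3: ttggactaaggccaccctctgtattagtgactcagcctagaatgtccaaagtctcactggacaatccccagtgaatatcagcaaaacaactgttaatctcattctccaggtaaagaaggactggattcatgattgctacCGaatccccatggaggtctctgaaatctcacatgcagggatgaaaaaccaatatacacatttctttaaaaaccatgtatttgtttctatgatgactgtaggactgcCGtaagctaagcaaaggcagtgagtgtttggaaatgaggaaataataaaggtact
TRIM68, GRCh38.p14 chr11:4608182-4608481, minus strand, 11p run
TRIM68: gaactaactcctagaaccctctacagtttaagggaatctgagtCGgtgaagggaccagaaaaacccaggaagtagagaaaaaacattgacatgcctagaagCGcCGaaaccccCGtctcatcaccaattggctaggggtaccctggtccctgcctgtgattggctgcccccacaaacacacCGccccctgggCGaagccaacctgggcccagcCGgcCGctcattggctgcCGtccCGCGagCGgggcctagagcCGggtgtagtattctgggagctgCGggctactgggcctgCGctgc
The receptor windows held 2 CG (OR52A5), 0 CG (OR8K5) and 2 CG (OR2L3), against 15 CG for TRIM68. The other TRIM windows of the 11p run held 3 to 8 CG, and over the 9 windows of its other coding genes the median was 6 CG, with 1 reaching 10. Over the 117 coding receptor genes of the runs that had a window, the median was 1 CG, 23 windows had none, and 2 (1.71%) reached 10 or more. Over all 27305 windows of the table the median was 14 CG and 56% reached 10 or more. The 11q receptor windows had the lowest content of G and C of the 3 runs, with a median of 33.3% over 42 windows, beside 40% in the 11p run (39 windows), 37.2% in the 1q run (36 windows) and 58.3% over the table. In 49 of the 117 receptor windows, among them that of OR8K5 shown above, the bases at the listed start read ATG. There the listed start may be a start codon, with the transcription start elsewhere.

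The chromatin of the 3 spans did not form 1 class. By covered length, 11q was a domain of H3K9me3 without any H3K4me3, H3K36me3 or MINA interval in either genotype. The 11p span was mostly outside every list, and 1q held H3K9me3 at a level between those of 11p and 11q together with islands of H3K4me3. Only the 11q span was therefore free of H3K4me3 and H3K36me3 intervals in both genotypes. The runs of 11p and 1q also hold other coding genes, and whether the active marks there lie at receptor genes was not tested. As a control between genotypes 11q was not flat, since it was there that the KO and WT lists of both heterochromatin marks lay far apart. All 3 spans together had 24.4% of their length under H3K9me3 in KO and 13.1% in WT, but 1000.8 kb of the 1157.8 kb in KO and 401.4 kb of the 621.2 kb in WT came from 11q. The spans are therefore described singly.

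**Figure D1:**
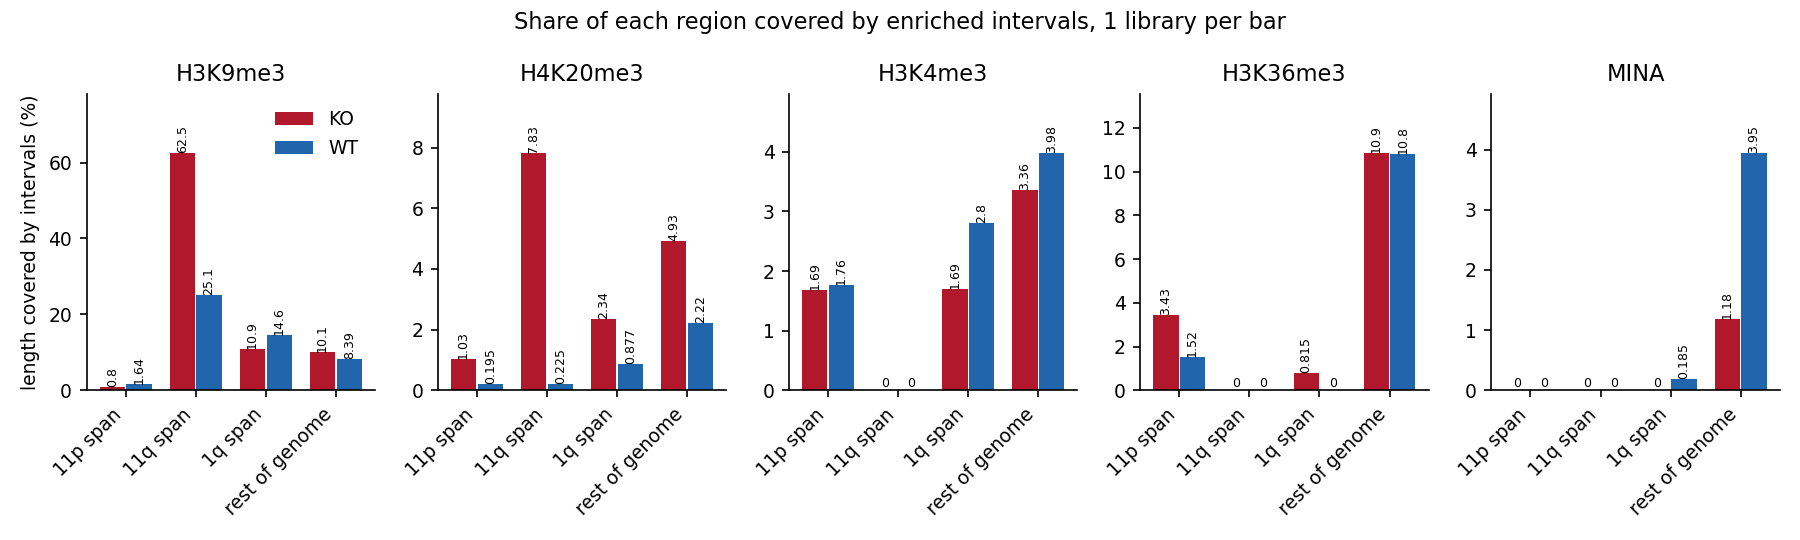
Share of each span and of the rest of chromosomes 1 to 22 and X (vertical axis, percent of length) covered by the intervals of each antibody, with KO in red and WT in blue and 1 library per bar; the vertical scale differs between antibodies. The 11q span stands out for H3K9me3, at 62.55% in KO and 25.1% in WT, and has no bar for H3K4me3, H3K36me3 or MINA.

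In the 11q span H3K9me3 covered 1000.8 kb in KO cells, or 62.55% of the span, and 401.4 kb in WT cells, or 25.1%. The KO length was 2.49 times the WT length. Outside the spans the shares were 10.1% in KO and 8.39% in WT, a ratio of 1.20. The span was thus covered 6.22 times as densely as the rest of the genome in KO and 2.99 times in WT. It also held more than the rest of chromosome 11, where H3K9me3 covered 16.7% in KO and 15.2% in WT. The chromosome-wide ratio of 1.09 was well below that of the span.

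The added length came from more intervals and from wider ones. KO had 185 H3K9me3 intervals in the span with a median width of 4.6 kb, and WT had 104 with a median of 3.5 kb. The widest measured 21.2 kb in KO, from 55159601 to 55180800, and 13.2 kb in WT, from 56240601 to 56253800. The median gap between neighbours was 2.4 kb in KO and 6.2 kb in WT. When intervals within 5 kb of each other were joined, the KO list formed 28 blocks, the longest of 188.2 kb from 56359401 to 56547600, while the WT list formed 61 blocks, the longest of 43.4 kb from 56073001 to 56116400. The median block measured 28.0 kb in KO and 5.4 kb in WT. The KO list thus formed fewer and longer blocks, although 37.3% of the span lay outside every KO list and 74.9% outside every WT list.

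Most of the WT positions were contained in the KO list. In the 11q span 92 of 185 KO intervals met a WT interval (49.7%, 95% Wilson interval 42.6% to 56.9%, counting error only), while 102 of 104 WT intervals met a KO interval (98.1%, 93.3% to 99.5%). Across the genome the shares were 52.8% of the KO intervals and 68.6% of the WT intervals. By length, 354.4 kb of the span lay in both lists, 646.4 kb in KO only and 47.0 kb in WT only. The KO-only intervals ranged up to 15.2 kb (56378601 to 56393800), followed by 10.4 kb (55078201 to 55088600) and 10.0 kb (55691801 to 55701800). The 2 WT-only intervals measured 2.4 kb (56199601 to 56202000) and 2.2 kb (55994401 to 55996600). The KO list therefore held nearly all WT sites and further ones between them. KO intervals covered 62.55% of the span and 10.1% of the genome outside the spans. More WT intervals would thus meet a KO interval at 11q wherever they lay. How far the WT sites were kept beyond that was not tested.

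**Figure D2:**
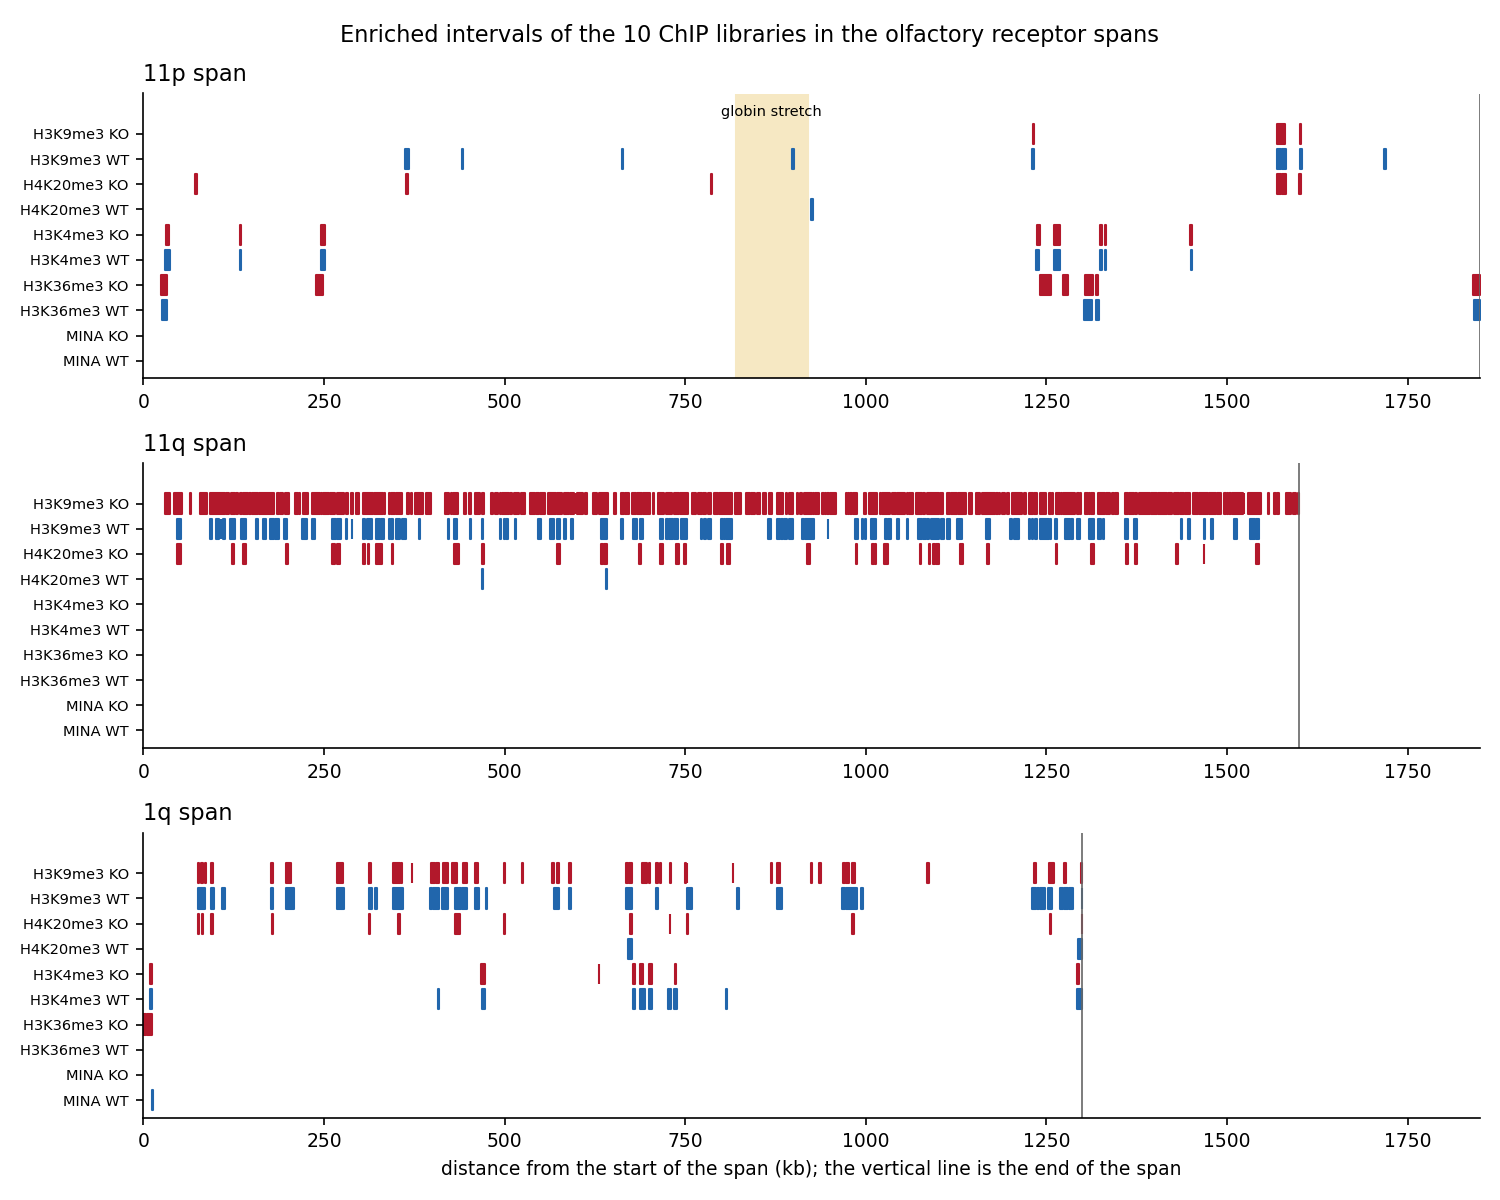
Position of every enriched interval in the 3 spans, with distance from the start of the span in kb on the horizontal axis and 1 row per library, KO in red above WT in blue; the shaded band in the top panel is the globin stretch. In the middle panel the 185 KO intervals of H3K9me3 fill most of the 11q span and the 6 rows of H3K4me3, H3K36me3 and MINA are empty, whereas the top panel is mostly blank.

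The difference ran along the whole of 11q and was not carried by 1 end. In its 16 tiles of 100 kb, H3K9me3 covered 37.2 to 78.4 kb in KO with a median of 66.4 kb, and 6.6 to 45.6 kb in WT with a median of 23.2 kb. KO was above WT in 16 of 16 tiles, although the ranges over tiles overlapped. The gap was widest from 56400001 to 56500000, with 76.6 kb in KO and 6.6 kb in WT (ratio 11.6), and narrowest in ratio from 56200001 to 56300000, with 67.2 kb in KO and 45.6 kb in WT (ratio 1.47). Counting a tile as different when the covered lengths, with 2 kb added to each, differed at least 2-fold, 10 of the 16 tiles were higher in KO and 0 were lower. Over all 18547 tiles of the genome with H3K9me3 in either genotype, 18.1% were higher in KO and 33.4% were lower. Tiles of 1 domain are neighbours and do not count as independent.

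**Figure D3:**
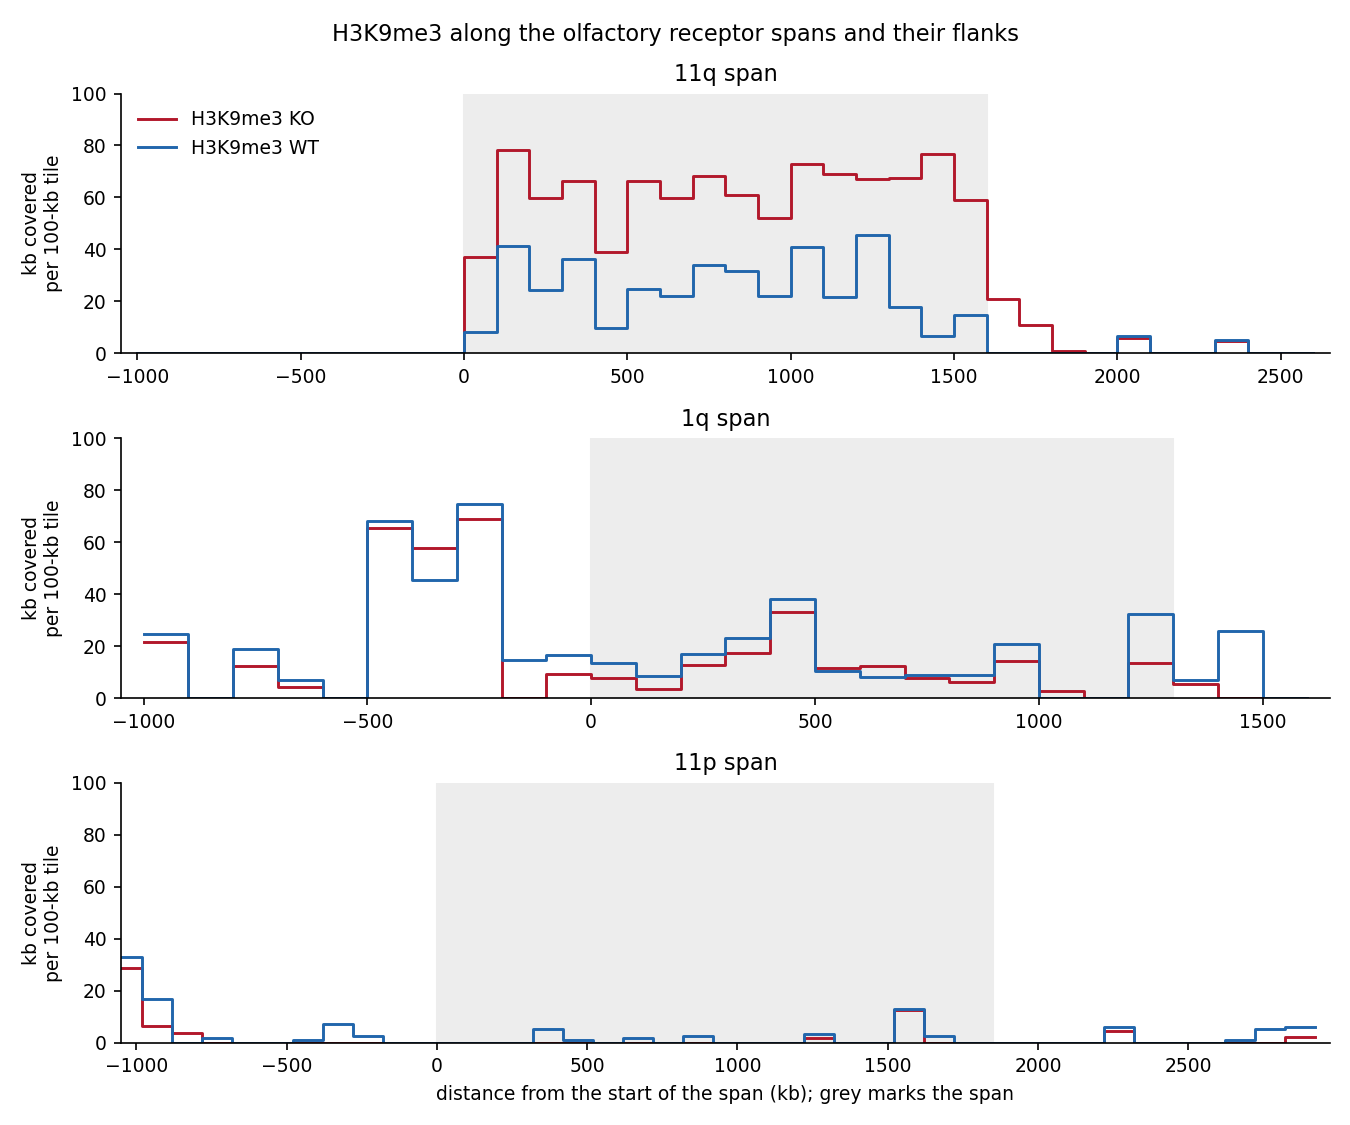
Length covered by H3K9me3 (kb per 100-kb tile) against distance from the start of the span (kb), with KO in red, WT in blue and the span in grey; flanks of about 1 Mb are shown, except after 1q, where the last listed interval of the chromosome ends 0.316 Mb past the span. In the 11q panel KO runs above WT in 16 of 16 tiles of the span, in the 1q panel the lines lie close to each other with KO below WT in 9 of 13 tiles, and in the 11p panel no tile of the span exceeds 12.8 kb in KO or 13.2 kb in WT.

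The 2 flanks of the 11q span were unlike each other. The 1 Mb before it, toward the centromere, held no interval in any of the 10 lists, and whether reads can be placed there was not tested. The first interval of any list in the span began 30.6 kb after its start. In the 1 Mb after the span H3K9me3 covered 4.36% in KO and 1.20% in WT, and H3K4me3, H3K36me3 and MINA intervals were present. H3K4me3 covered 11.5% of that flank in KO and 15.1% in WT, H3K36me3 27.4% in KO and 24.0% in WT, and MINA 2.96% in KO and 12.9% in WT. In the first 3 tiles of 100 kb after the span H3K9me3 covered 21, 11 and 1 kb in KO and 0 kb in WT, so the KO domain reached past the chosen end.

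H4K20me3 followed H3K9me3 at 11q in KO cells and was almost absent there in WT cells. It covered 125.2 kb in 40 intervals in KO (7.83% of the span) and 3.6 kb in 2 intervals in WT (0.225%), a ratio of 34.8 that rests on the few WT intervals. Over the rest of the genome the shares were 4.93% in KO and 2.22% in WT, a ratio of 2.22. The WT level was therefore below that of the genome and the KO level above it. The widest KO interval measured 8.8 kb (55322001 to 55330800), and the WT intervals measured 1.8 kb each (55468601 to 55470400 and 55640201 to 55642000) and both met KO intervals, as 55.4% of WT intervals did over the genome. All 16 tiles of the span were called higher in KO, with 2.0 to 19.2 kb in KO and 0 to 1.8 kb in WT. Over 13274 tiles of the genome 55.3% were called higher in KO and 15.6% lower, so a higher call for this mark was the common outcome.

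These H4K20me3 intervals lay where H3K9me3 lay too. All 40 KO intervals met H3K9me3 in KO, and 39 of them met H3K9me3 in WT too. By length 98.1% of the KO H4K20me3 at 11q lay under H3K9me3 of KO and 87.1% under H3K9me3 of WT, where over the genome the shares were 60.7% for H3K9me3 of KO and 57.2% for that of WT. H3K9me3 itself covered 62.55% of 11q in KO and 25.1% in WT, beside 10.1% in KO and 8.39% in WT outside the spans. A larger overlap follows at 11q from that coverage alone. The higher shares therefore do not show a closer tie of the marks than over the genome. Seen from the other side, 12.3% of the H3K9me3 length in KO and 0.897% of that in WT carried H4K20me3 of the same genotype. Most of the H3K9me3 domain thus had no H4K20me3 interval in either genotype.

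The 11q span was set beside all other tiles of its own length along chromosomes 1 to 22 and X that held any interval. Of 1779 such tiles 69 (3.88%) had more H3K9me3 in KO and 154 (8.66%) in WT, with medians of 2.11% in KO and 4.35% in WT. In the difference of KO minus WT, 37.5 percentage points at 11q, 58 tiles (3.26%) lay higher, and the median tile stood at -1.31 points. The span was thus among the regions that differed most in this direction, but it was not alone. An absence of H3K4me3 was shared with 147 tiles in KO and 133 in WT, and an absence of MINA with 430 in KO and 321 in WT, so neither absence was peculiar to the span.

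**Figure D4:**
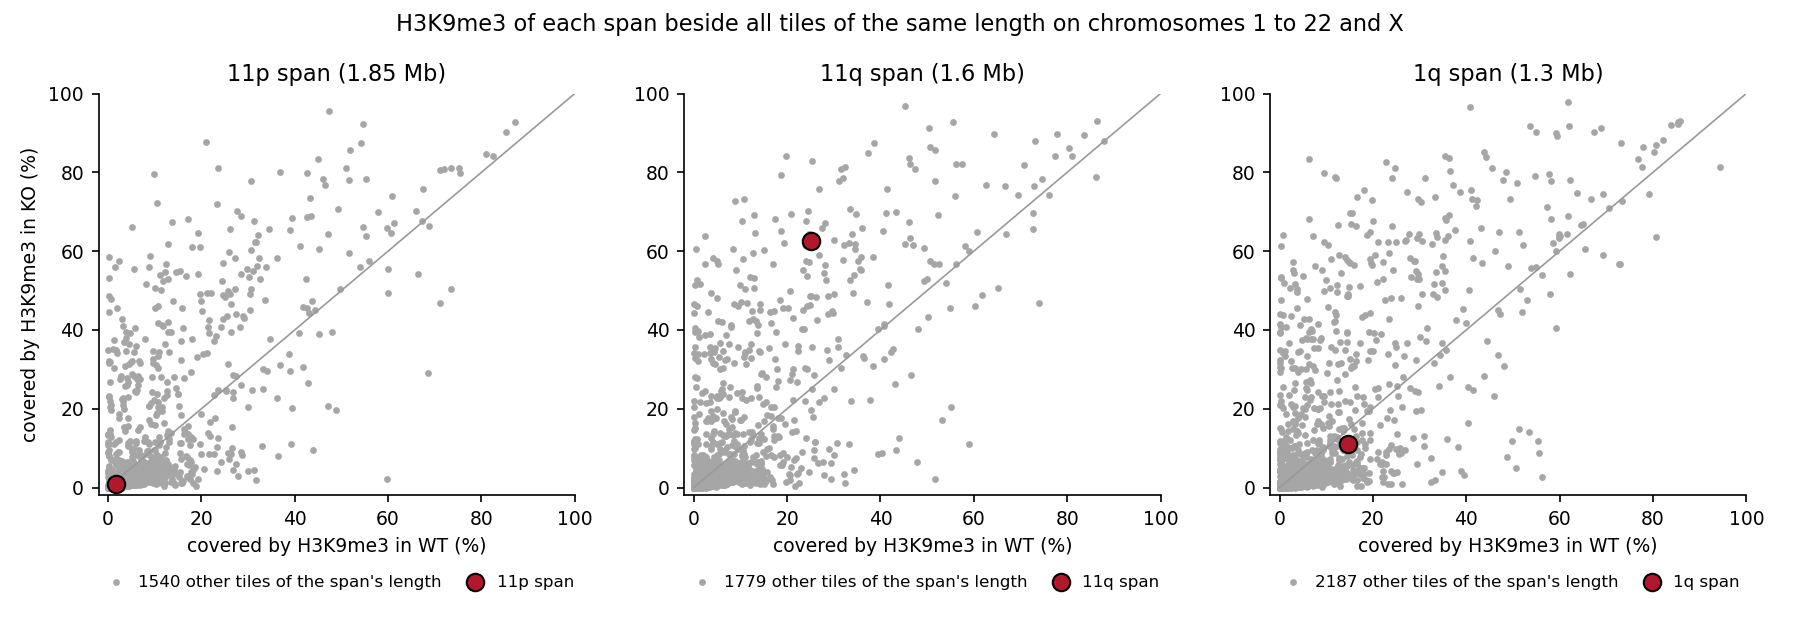
H3K9me3 coverage in KO (vertical axis, percent) against WT (horizontal axis, percent) for each span (red) and for all other tiles of the same length (grey); the line marks equal coverage. The 11q span lies far above the line at 62.55% in KO and 25.1% in WT, the 1q span lies just below it at 10.9% in KO and 14.6% in WT, and the 11p span sits near the origin with 0.8% in KO and 1.64% in WT.

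In the 1q span H3K9me3 covered less length in KO than in WT. The mark covered 142.2 kb in KO (10.9%) and 189.4 kb in WT (14.6%), a ratio of 0.751, while the number of intervals was slightly higher in KO, at 45 against 41 in WT. The share was 1.09 times that of the genome outside the spans in KO and 1.74 times in WT, and of 2187 tiles of the same length 447 (20.4%) had more in KO and 329 (15.0%) in WT. On the rest of chromosome 1 the covered share was 5.64% in KO and 6.82% in WT, with a ratio of 0.827. The lower KO length of the span was therefore close to that of its chromosome. Of the 12 tiles that could be compared 1 was called higher in KO and 1 lower, beside 18.1% higher and 33.4% lower over the genome. KO was below WT in 9 tiles and above it in 3.

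At 1q the lists shared about as much in both directions. Of the 45 KO intervals 32 met a WT interval (71.1%, Wilson interval 56.6% to 82.3%), and 28 of the 41 WT intervals met a KO interval (68.3%, 53.0% to 80.4%). Over the genome 52.8% of the KO and 68.6% of the WT intervals did, so the WT share of 1q was that of the genome. Both lists held 102.4 kb, KO alone 39.8 kb and WT alone 87.0 kb. The widest intervals were 10.4 kb in KO (247945001 to 247955400) and 10.6 kb in WT (247797601 to 247808200), both found in the other list. The widest KO-only intervals were 5.8 kb (248290801 to 248296600), 2.6 kb (248685001 to 248687600) and 2.2 kb (248535201 to 248537400). Those found in WT alone reached 6.4 kb (248841201 to 248847600), 5.2 kb (248034601 to 248039800) and 4.4 kb (247709201 to 247713600). The last 100 kb of the span, with 13.4 kb in KO and 32.4 kb in WT, made up the largest single part of the difference.

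H4K20me3 was sparse at 1q and higher in KO. It covered 30.4 kb in 14 intervals in KO (2.34%) and 11.4 kb in 2 intervals in WT (0.877%), a ratio of 2.67, beside 2.22 for the genome. The ratio depended on the edge and on the measure, being 4.21 with the span shortened by 100 kb at both ends and 7.0 by number of intervals (2.96 by number for the genome). All 14 KO intervals met H3K9me3 of KO, and 12 met H3K9me3 of WT. The widest KO interval measured 7.6 kb (248030801 to 248038400). The widest WT interval measured 11.2 kb (248894201 to 248905400) and ran past the end of the span. Of 9 tiles that could be compared 5 were called higher in KO and 1 lower, beside the 55.3% and 15.6% over the genome.

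Active marks were present at 1q. H3K4me3 covered 22 kb in 8 intervals in KO (1.69%) and 36.4 kb in 11 intervals in WT (2.80%), a ratio of 0.604 beside 0.844 over the genome. Of these, 7 of 8 in KO and 7 of 11 in WT met an interval of the other genotype, beside 94.1% in KO and 85.1% in WT over the genome. The widest measured 5.0 kb in KO (248067401 to 248072400) and 7.0 kb in WT (248892401 to 248899400). WT-only intervals began at 248007601, 248326001, 248328601 and 248406601 and measured 0.8 to 1.8 kb, and the KO-only interval measured 0.4 kb (248230801 to 248231200). A stretch of about 60 kb from 248278001 to 248338200 held 4 intervals in KO and 6 in WT. Within it, the widest KO-only H3K9me3 interval of the span touched H3K4me3 intervals, so both kinds of mark were listed at 1 place in KO. This was not peculiar to KO, since over the whole span 2 H3K9me3 intervals in KO and 2 in WT met H3K4me3 of the same genotype. Of 12 tiles of all 3 spans with H3K4me3, 1 was called lower in KO, which lay at 1q, and 0 were called higher, beside 5.95% lower and 1.85% higher over 12318 tiles of the genome.

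The H3K36me3 and MINA intervals of 1q lay at its first edge. KO held 2 H3K36me3 intervals over 10.6 kb of the span (0.815%), from 247580801 to 247604000, which crosses the start of the span, and from 247605601 to 247612200. WT held none inside the span. The MINA list of WT held 1 interval of 2.4 kb (247611401 to 247613800), and the KO list held none. This single MINA interval in 4.75 Mb overlapped H3K4me3 of both genotypes (247609801 to 247612200 in KO and 247609401 to 247612200 in WT). The 3 spans were otherwise free of MINA intervals, where the rest of the genome was covered to 1.18% in KO and 3.95% in WT.

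The 11p span was the emptiest. In all, 92.7% of it lay outside every one of the 10 lists, and 303.0 kb from 5307201 to 5610200 were free of intervals without a break. H3K9me3 covered 14.8 kb in 3 intervals in KO (0.80%) and 30.4 kb in 9 intervals in WT (1.64%), a ratio of 0.487. That is 0.0796 of the coverage of the genome outside the spans in KO and 0.196 in WT. The 11p span was thus almost free of the mark that covered 62.55% of 11q in KO and 25.1% in WT. Of 1540 tiles of the same length 1311 had more H3K9me3 in KO and 1286 in WT. The median tile stood at 2.18% in KO and 4.38% in WT, so 11p was nearer to it than to the genome's coverage.

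The heterochromatin intervals of 11p were few and scattered. The widest H3K9me3 interval measured 11.6 kb in KO (5949201 to 5960800), where WT had intervals of 6.0 kb (5949001 to 5955000) and 4.8 kb (5956601 to 5961400). All 3 KO intervals were found in WT, and 4 of the 9 in WT met one of KO, beside 52.8% of the KO and 68.6% of the WT intervals over the genome. The widest of the 5 WT-only intervals were 5.4 kb (4742201 to 4747600), 2.8 kb (5277801 to 5280600) and 2.6 kb (6097401 to 6100000). No tile was above WT in KO, 7 of 18 were below, and 3 of 7 comparable tiles were called lower, beside 33.4% over the genome. H4K20me3 covered 19.0 kb in 6 intervals in KO (1.03%) and 3.6 kb in 1 interval in WT (0.195%). The ratio of 5.28, beside 2.22 for the genome, rests on that 1 WT interval. Of 5 comparable tiles 3 were called higher in KO and 1 lower, beside 55.3% and 15.6% over the genome. The widest H4K20me3 interval was 5.6 kb in KO (5949401 to 5955000), inside the H3K9me3 interval above. The WT one (5303601 to 5307200) met no other list. Of the 6 KO intervals 3 lay on H3K9me3 of KO.

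H3K4me3 was, of the 4 histone marks at 11p, the one whose covered length differed least. Both genotypes held 8 intervals, and all 8 were found in the other list, near the genome's shares of 94.1% in KO and 85.1% in WT. They covered 31.2 kb in KO (1.69%) and 32.6 kb in WT (1.76%), a ratio of 0.957. The intervals formed a group of 3 from 4411201 to 4631600 in KO (4410601 to 4632000 in WT) and a group of 5 from 5617001 to 5831000 in KO (5616201 to 5831200 in WT), one on either side of the globin stretch. The widest measured 9.0 kb in KO (5640201 to 5649200) and 8.6 kb in WT (5640001 to 5648600). In the gene order the TRIM genes also stand on either side of the globin genes, TRIM68 and TRIM21 before them and TRIM6, TRIM34, TRIM5 and TRIM22 after them. TRIM21 is an intracellular receptor for antibodies, and TRIM5 and TRIM22 restrict viruses. Whether the intervals are at these genes was not tested.

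H3K36me3 at 11p covered 63.4 kb in 7 intervals in KO (3.43%) and 28.2 kb in 4 intervals in WT (1.52%), a ratio of 2.25, where the genome as a whole stood at 1.00 with 10.9% in KO and 10.8% in WT. Of the KO intervals 4 of 7 and of the WT intervals 4 of 4 were found in the other list, beside 85.5% in both over the genome. The WT intervals were 4406401 to 4413200, 5682801 to 5693000, 5698801 to 5702400 and 6222401 to 6248000. The last of them, the widest in WT at 25.6 kb, runs past the end of the span, as does the widest in KO at 32.2 kb (6220401 to 6252600). The KO-only intervals measured 10.2 kb (4618401 to 4628600), 15.0 kb (5620801 to 5635800) and 6.6 kb (5653601 to 5660200), and the first and second of these met H3K4me3 intervals of KO that were also found in WT. Of 5 tiles of the 3 spans with the mark 3 were called higher in KO and 0 lower, 2 of the 3 at 11p, beside 9.4% higher and 9.64% lower over 9504 tiles of the genome.

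The globin stretch held 1 interval in all, of H3K9me3 in WT (5277801 to 5280600, 2.8 kb), and the other 9 lists held none. Without this stretch H3K9me3 at 11p covered 14.8 kb in KO and 27.6 kb in WT, a ratio of 0.536. Globin genes are expressed in red cell precursors, and their stretch held no H3K4me3 or H3K36me3 interval in either genotype of this line.

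The flanks of 11p and 1q set the spans against their surroundings. H3K4me3 covered 5.74% in KO and 6.82% in WT of the 1 Mb before 11p, and 8.44% in KO and 8.84% in WT of the 1 Mb after it, and H3K36me3 covered 22.6% in KO and 22.5% in WT before it and 19.5% in KO and 21.6% in WT after it. Both marks were thus several times sparser inside 11p than beside it. H3K9me3 covered 2.96% in KO and 4.92% in WT of the 1 Mb before 11p. In the 1 Mb after 11p it covered 0.44% in KO and 1.24% in WT, less than inside the span. KO over WT was 0.602 before and 0.355 after, beside 0.487 in the span. Neither the sparse H3K9me3 nor its lower KO length was therefore particular to the 11p span. Before 1q H3K9me3 reached 24.0% in KO and 27.0% in WT, more than inside that span, and in the 0.316 Mb from the end of the span to that of the last listed interval of chromosome 1 it covered 1.71% in KO (1 interval) and 10.4% in WT (4 intervals).

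Read depth, antibody efficiency and DNA copy number of each library are unknown here, and a list from a deeper library holds more and wider intervals, so their part in the KO and WT values was not tested.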

How the data were processed

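Per the submitters' processing notes the authors aligned reads with BWA to hg19 and called enriched intervals with SICER 1.1. In the deposited file each ChIP library has 1 list of intervals (chromosome, start and end, with no other measured value) on a 200-bp grid. The sources used here give neither the caller's settings nor any scaling, and the read depth is unknown, so no interval or floor that needs depth is given. The 1 merged list and the input library were not used.

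Intervals were placed on 200-bp windows of chromosomes 1 to 22 and X, each taken to the end of its last listed interval, and intersected with the spans and with 100-kb tiles, with Python 3.11.15, numpy 2.4.6, scipy 1.17.1 and matplotlib 3.10.9. Coordinates are 1-based. An overlap of at least 1 window counted as found. The counting was tested on simulated data. Regions were named by rule: the widest KO and WT interval per span and antibody, the 3 widest H3K9me3 intervals found in 1 genotype only, and every H3K4me3, H3K36me3 or MINA interval where a list held 5 or fewer in a span. Other intervals were named after their values were seen. The spans and lists were chosen with earlier results of these data known. Gene order and sequences come from RefSeq (GRCh38.p14), whose coordinates were not used with the intervals. With 1 library per antibody and genotype no p-value is given. Alternatives were merging, a width minimum, shortened spans, interval number, other backgrounds, other tiles, a 3-fold limit and a stricter overlap.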

Additional observations from a re-analysis of the deposited data

How the results depend on the processing

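There were 98 alternative values over 40 results. Of these, 85 did not turn and stayed within 1.5 times of the value reported, 11 moved further and 2 turned. For shared intervals the limit was the Wilson interval in place of 1.5 times. The 85 include H3K4me3 at 11p by number of intervals, at 1.0 (0.957 by length). The 2.49-fold H3K9me3 length at 11q ran from 1.78 by number to 2.68 with intervals within 5 kb merged. The ratio of H3K9me3 at 1q turned to 1.1 by number of intervals (0.751 by length), and that of H3K4me3 at 11p to 1.01 with intervals of at least 2 kb (0.957 with all). H4K20me3 moved to 20 by number at 11q (34.8 by length), and at 1q to 4.21 with the span shortened by 100 kb at both ends and to 7.0 by number (2.67 by length). At 11q no value could be had for H4K20me3 with intervals of at least 2 kb, since WT then held none. Against chromosomes 1 and 11 in place of the genome, the WT level of H4K20me3 was 0.0564 at 11p, 0.0652 at 11q and 0.254 at 1q (0.0877, 0.101 and 0.395 against the genome), and that of MINA at 1q 0.0299 (0.0468). With a 3-fold limit the tiles of the spans called for H3K9me3 were 14.3% higher in KO (31.4% at 2-fold) and 2.86% lower (11.4%), beside 11.3% and 17.4% over the genome, and for H4K20me3 46.7% higher (80.0%) and 0% lower (6.67%), beside 36.6% and 9.45%. At that limit the share of H3K9me3 tiles higher in KO, pooled over the 3 spans, was close to the genome's. The pool hides the spans, since at 2-fold 10 of 16 tested tiles were higher at 11q, 1 of 12 at 1q and 0 of 7 at 11p. Shares of single spans at the 3-fold limit were not computed, so the pooled value does not describe 11q. The cause of the changes between settings was not tested. No paired analysis was possible because each antibody has 1 library per genotype. Limits are the lack of replicates, the unknown depth, lists without heights, and mapping between similar receptor genes, which was not tested.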

Other observations

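The chromatin on the other side of the chromosome 11 centromere differed in the same direction as 11q. These stretches were chosen after the data were seen, and their gene content, including any receptor genes, was not read. From 51563001 to 55030600 no list held an interval, over 3.47 Mb, and whether reads can be placed there was not tested. In the last 3 Mb before that gap (48563001 to 51563000) H3K9me3 covered 832.0 kb in KO (27.7%) and 317.8 kb in WT (10.6%). H4K20me3 covered 181.8 kb there in KO and 0 kb in WT, and H3K4me3, H3K36me3 and MINA had no interval in either genotype. In the 3 Mb before those (45563001 to 48563000) H3K9me3 covered 71.8 kb in KO and 65.2 kb in WT, and H3K36me3 covered 1077.2 kb in KO and 1059.8 kb in WT.

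The 58 tiles of the length of 11q in which H3K9me3 was raised in KO by more percentage points than at 11q lay on 16 chromosomes, 10 of them on chromosome 14, 10 on X, 7 on 2, 6 on 5 and 6 on 16. Their median H3K9me3 coverage was 61.0% in KO and 12.8% in WT. These values follow from how the tiles were chosen. H3K4me3 in WT, which was not itself used to choose them, had a median of 0% and a highest value of 2.25% in them. Over all 1779 tiles of that length its median was 2.45% and its highest value 47.7%, and 7.48% of the tiles were at 0. The chosen tiles all had at least 39.5% of their length under H3K9me3 in KO. They were not set beside tiles of like H3K9me3 coverage, so how far the low H3K4me3 follows from the choice was not tested. Chromosome 18 as a whole, with H3K9me3 at 8.49% in KO and 3.69% in WT, had a ratio of 2.30, near the 2.49 of 11q, at a much lower coverage.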
